A study of Mus musculus with 4 samples.

Results

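Histone cluster genes encode the replication-dependent histones, the proteins around which newly copied DNA is wrapped. They were taken as all genes whose symbol begins with Hist1, Hist2, Hist3, or Hist4, which held for 67 of the 31053 genes in the feature table. Of these, 54 had at least 50 unique molecular identifiers (UMIs, each standing for 1 captured mRNA molecule) over the kept cells and are the members described here. As many UMIs were reached by 11922 genes of the whole table. The members comprised 5 H1, 14 H2A, 15 H2B, 10 H3, and 10 H4 genes. The 13 other genes of the rule had 45 UMIs or fewer, and Hist1h2bq had 0. Just above the minimum stood Hist1h2bp with 52, Hist1h2ad with 53, and Hist1h4n with 54 UMIs, and just below it Hist2h3c2 with 45 and Hist1h4f and Hist1h2bl with 38 each.

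The cells were B cells purified from the spleen of wild-type (WT) mice, and all of them were cultured with the TLR9 ligand CpG B ODN 1668 for 3 days. The labels name 2 samples of Bregs-CpG, which received CpG alone, and 2 samples of Bregs-TLR, to which LPS, PMA, and ionomycin were added for the last 5 hours. No label says whether the samples of a group came from separate mice or cultures. Barcodes end in a library number from 5 to 8 that no label pairs with a sample, so it is not known which libraries are Bregs-CpG and which Bregs-TLR. Libraries are therefore described one by one and in the pairs 5 and 6 and 7 and 8, which are not labelled groups, and no difference between the conditions was tested. Levels are given per library as CPM, the UMIs of a gene per 1000000 UMIs of the library, with 95% intervals that cover counting error only.

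Of 19920 cells, 18534 had at least 1000 genes and under 10% mitochondrial UMIs, and the libraries kept 4003 to 5621 cells and 44842982 to 63638158 UMIs each. B cell markers were all detected, and 7 of them summed to 14260, 14800, 7554, and 7460 CPM in libraries 5 to 8. Of 6 T cell markers, Cd3e, Cd4, and Cd8a were at 0 in every library and the sum was 0.513, 0.581, 0.424, and 0.788 CPM. Of 6 myeloid markers, Lyz2, S100a8, and S100a9 were at 0 and the sum was 1.87, 2.46, 0.691, and 0.416 CPM, nearly all of it Itgam. The 3 NK cell markers were at 0. Plasma cell markers, most of their sum being Mzb1 in libraries 5 and 6, were at 1614, 1779, 389.8, and 339 CPM. Red cell markers, nearly all Hbb-bt, were at 4.59, 4.299, 219, and 285, with Hba-a1 at 0 in every library. The plasma cell markers did not move together. Mzb1, Derl3, and Tnfrsf17 (9 UMIs in all) were lower in libraries 7 and 8, and Jchain and Txndc5 overlapped. Xbp1 and Sdc1 were higher there, Sdc1 at 0.201, 0.213, 7.45, and 6.15 CPM. Among kept cells, 28 barcode sequences occurred in more than 1 library (56 cells). No cell was removed as a doublet.

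Core histones H2A, H2B, H3, and H4 form the octamer of the nucleosome, and the linker histone H1 binds DNA where it enters and leaves. Cells make these histones mainly during S phase, when replicated DNA needs them, and most of their mRNAs end in a conserved stem-loop instead of a poly(A) tail. The stem-loop is bound by SLBP, which governs processing, translation, and decay of the mRNA. Libraries of the 10x Genomics 3′ kind are primed on poly(A), so a histone mRNA is counted only as far as it carries a poly(A) stretch or is primed in another way. The levels below are levels of captured 3′ ends and were not divided by length.

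To show what the members share, the stem-loop was searched in the 150 bases after the stop codon of annotated transcripts (GENCODE vM21, GRCm38), as arms of 6 bases with at least 5 pairs, beginning with GG and ending with CC, around a loop of 4 bases that starts with TT. It was found in 38 of the 54 members and in 0.747% of 21677 protein-coding genes. Of the 16 members without it, Hist1h1b among them, 9 had fewer than 30 annotated bases after the stop codon. The 6 forms are given as DNA, 5′ to 3′, with the loop in capitals, because the arms differ between H4 and the other classes. The first was found in 23 members of the H1, H2A, H2B, and H3 classes, including Hist1h1e, Hist1h2ap, Hist1h2ae, and Hist3h2a, and the second in 5 H2B and H3 members. The third was found in Hist2h2ac. The other forms were found in H4 members, the fourth in 5, among them Hist4h4, the fifth in Hist1h4i and Hist2h4, and the last in Hist1h4b and Hist1h4j.
Hist1h1c: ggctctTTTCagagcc
Hist1h3c: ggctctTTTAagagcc
Hist2h2ac: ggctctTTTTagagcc
Hist1h4d: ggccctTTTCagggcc
Hist1h4i: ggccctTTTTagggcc
Hist1h4b: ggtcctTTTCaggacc

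Members also differed in how far the annotation runs on. In 23 members the annotated transcript reached at least 100 bases past the stem-loop or at least 200 bases past the stop codon, and these are called long-ended here. The other 31 are called short-ended. A poly(A) signal stood in the last 50 annotated bases of 15 members, against 78.5% of all protein-coding genes. These ends are those of the reference, not a measurement in these cells.

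The members lay in clusters, with 43 on chromosome 13, 8 on chromosome 3, 2 on chromosome 11, and 1 on chromosome 6. Promoter windows of RefSeq (250 bases before to 50 after the start, GRCm38.p6) were found for 48 members, and the octamer ATGCAAAT, CCAAT, and TATAAA were searched in them on both strands. The octamer stood in 11 windows, 5 of H2A and 6 of H2B members, against 1.74% of all 32851 windows. CCAAT stood in 42, namely in every window of the H1, H2A, H2B, and H3 classes and in 3 of 9 windows of H4 members, against 37.4% of all windows. TATAAA stood in 28, against 13.6%. A match describes letters, not a bound factor, and H2A and H2B genes that face away from each other share much of 1 window.

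The windows of 4 members with unlike behavior below are shown, with matches to these motifs on either strand in capitals. Hist1h1b (chr13:21780576-21780875, minus strand), whose gene lies at chr13:21779883-21780625, had the most UMIs. Hist1h2ae (chr13:23571171-23571470, minus strand) overlaps the window of Hist1h2bg. Hist3h2a (chr11:58954435-58954734, plus strand, gene at chr11:58954685-58956830) had a Mki67 ratio close to 0 on the log2 scale. Hist4h4 (chr6:136804382-136804681, minus strand, gene at chr6:136801553-136804415) was not lower in libraries 7 and 8, and its window held none of these motifs.
Hist1h1b: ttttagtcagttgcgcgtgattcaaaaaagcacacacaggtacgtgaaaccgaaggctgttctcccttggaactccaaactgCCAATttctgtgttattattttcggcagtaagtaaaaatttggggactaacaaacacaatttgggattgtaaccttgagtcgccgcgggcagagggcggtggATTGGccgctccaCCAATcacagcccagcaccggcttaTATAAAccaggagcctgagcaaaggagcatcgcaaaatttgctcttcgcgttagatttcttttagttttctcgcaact
Hist1h2ae: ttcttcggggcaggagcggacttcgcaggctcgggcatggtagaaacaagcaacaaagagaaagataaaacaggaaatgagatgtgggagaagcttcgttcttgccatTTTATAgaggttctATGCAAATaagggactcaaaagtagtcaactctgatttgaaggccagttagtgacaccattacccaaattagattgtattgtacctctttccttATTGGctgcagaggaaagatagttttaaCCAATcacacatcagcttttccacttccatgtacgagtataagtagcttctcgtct
Hist3h2a: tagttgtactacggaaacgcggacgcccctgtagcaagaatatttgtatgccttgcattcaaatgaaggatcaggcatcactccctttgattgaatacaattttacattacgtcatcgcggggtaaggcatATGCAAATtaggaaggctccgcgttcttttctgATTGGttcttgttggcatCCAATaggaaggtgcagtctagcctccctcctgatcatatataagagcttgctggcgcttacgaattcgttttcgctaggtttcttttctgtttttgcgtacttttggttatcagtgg
Hist4h4: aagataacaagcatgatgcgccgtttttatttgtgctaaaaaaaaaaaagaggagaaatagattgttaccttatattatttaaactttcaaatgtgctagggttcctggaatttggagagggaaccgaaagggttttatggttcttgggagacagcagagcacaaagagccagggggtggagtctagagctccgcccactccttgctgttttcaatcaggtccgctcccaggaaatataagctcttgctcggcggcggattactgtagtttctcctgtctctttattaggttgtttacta

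The members together held 89245 UMIs, or 0.0434% of all UMIs, and 5 of them made up 65.5% of that sum. These were the linker histone genes Hist1h1b with 22004 UMIs, Hist1h1e with 14185, and Hist1h1c with 5454, and the H2A genes Hist1h2ap with 10099 and Hist1h2ae with 6761. Near-identical copies limit how well reads can be assigned. In 11 members more than 80% of the 31-base words of the transcripts also occurred in another gene of the rule, so their values are uncertain. The share was 93.4% for Hist1h2ap and 3.1% for Hist1h1b. Hist1h1e also overlaps Hist1h2be, and Hist3h2a overlaps Trim17, on the same strand.

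To compare the classes across libraries, the UMIs of their members were summed. All members together were at 661 (654 to 668), 573 (567 to 579.7), 284 (279 to 288), and 262 (257 to 267) CPM in libraries 5, 6, 7, and 8, with 95% intervals in parentheses. Both values of libraries 7 and 8 lay below both values of libraries 5 and 6, and the pooled ratio was 0.447 (log2 -1.16, interval -1.18 to -1.14). H1 members were at 317, 321, 137, and 149.7 CPM, and H2A members at 208, 133, 90.8, and 48.9. H2B members were at 46.4, 41.8, 16.4, and 16.6, H3 members at 36.2, 31.5, 16.1, and 19.3, and H4 members at 53.8, 45.7, 22.9, and 27.4. The log2 ratio of libraries 7 and 8 over 5 and 6 was lowest for H2B (-1.41, interval -1.49 to -1.33), followed by H2A (-1.20, interval -1.24 to -1.16) and H1 (-1.16, interval -1.19 to -1.14). It was nearer to 0 for H4 (-0.996, interval -1.06 to -0.93) and H3 (-0.94, interval -1.03 to -0.86), whose intervals overlapped. The intervals of H1 and H2A also overlapped. The place of H2A in this order was not stable. H2A was at -1.78 and H2B at -1.40 without library 7, and H2A at -1.50 and H2B at -1.49 without library 6. Without library 5, H2A was at -0.86 and H3 at -0.85. Hist1h2ap held 10099 of the 24208 H2A UMIs and was at 93.3, 35.3, 53.5, and 15.1 CPM in libraries 5 to 8. In medians over single members, the order differed, at -1.56 for H1 and H2A, -1.30 for H2B, -1.14 for H3, and -1.01 for H4.

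Of the 54 members, 34 were at least 2-fold lower in libraries 7 and 8 without overlap of single libraries, against a background of 16.7% of 11922 genes. None was at least 2-fold higher by this rule, against 15.1%. At any size of the difference, 48 members were lower without overlap and 1, Hist4h4, was higher. Of 11921 genes, 4835 were lower and 5794 higher without overlap, so this looser count has a much larger background than the 2-fold rule. The calls covered 5 of 5 H1, 8 of 14 H2A, 10 of 15 H2B, 6 of 10 H3, and 5 of 10 H4 members. The median log2 ratio was -1.25 over the members and 0.09 over all genes tested. Most members had 50 to 1000 UMIs, and in this range 25 of 40 members were called lower, against 27.9% of 3640 genes, whose median was -0.22.

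**Figure D1:**
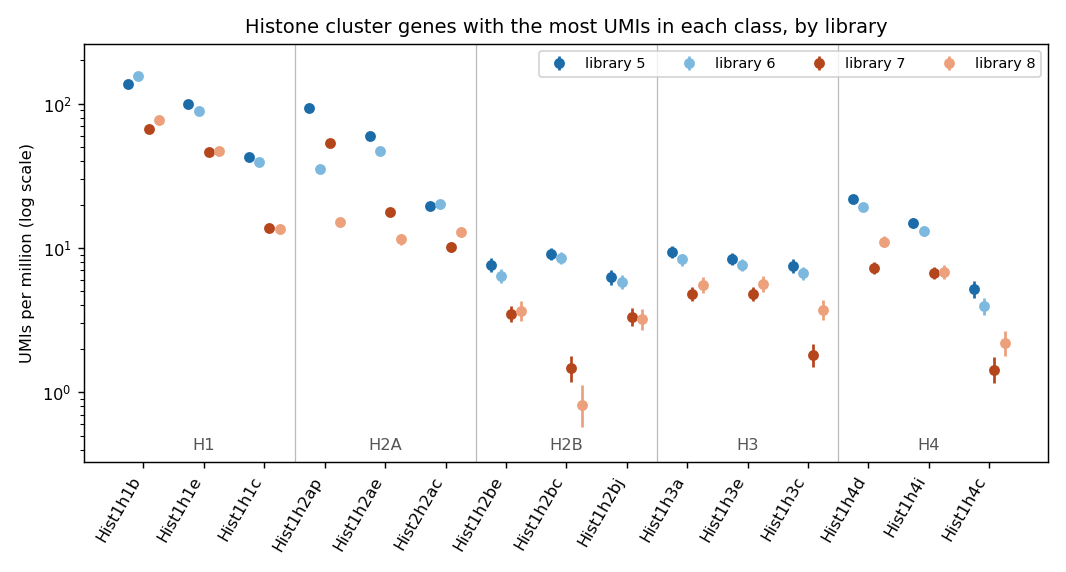
CPM (log scale) of the 3 members with the most UMIs in each of the 5 classes, with a point for each of libraries 5 to 8 and exact Poisson 95% intervals. Both values of libraries 7 and 8 lie below both of libraries 5 and 6 for every gene but Hist1h2ap, at 93.3, 35.3, 53.5, and 15.1 CPM.

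The lowest ratios belonged to core histone genes. Hist3h2ba, an H2B gene of chromosome 11, was at 3.81, 3.89, 0.330, and 0.175 CPM in libraries 5 to 8 (log2 -3.86, interval -4.46 to -3.31). Its neighbor Hist3h2a, an H2A gene, was at 10.3, 10.4, 2.06, and 2.17 (log2 -2.30, interval -2.52 to -2.10). The H2B gene Hist1h2bc was at 9.05, 8.56, 1.46, and 0.8101 (log2 -2.89, interval -3.16 to -2.62). In these genes libraries 5 and 6 were close to each other and far above both others. Hist1h2af was at 1.78, 1.63, 0.251, and 0.569 (log2 -2.15) and Hist1h4j at 0.803, 0.562, 0.110, and 0.219 (log2 -2.12).

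At the other end, Hist4h4, the H4 gene of chromosome 6, was at 2.48, 2.401, 2.94, and 2.82 CPM, and its log2 ratio of 0.25 had an interval from -0.001 to 0.50, which reached 0. Hist1h4a was at 0.714, 0.503, 0.739, and 0.372 (log2 -0.04, interval -0.57 to 0.50), with overlapping libraries. Hist2h2ab, at 0.468, 0.2905, 0.251, and 0.306 (log2 -0.44), overlapped as well. Hist2h4, at 2.14, 1.72, 1.18, and 1.69 (log2 -0.46), did not overlap by a narrow margin. Hist2h2bb was at 2.698, 2.71, 1.45, and 2.39 (log2 -0.56).

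Members with many UMIs lay between these ends. Of the H1 genes, Hist1h1b at 138, 156, 66.9, and 76.9 (log2 -1.05), Hist1h1e at 99.4, 89.7, 46.4, and 46.96 (log2 -1.01), and Hist1h1c at 42.7, 39.7, 13.7, and 13.5 (log2 -1.59) were the highest. Of the H2A genes, Hist1h2ae was at 59.3, 47.4, 17.7, and 11.5 (log2 -1.81) and Hist2h2ac at 19.5, 20.1, 10.2, and 12.9 (log2 -0.81). H2B genes were lower in level, with Hist1h2be at 7.65, 6.37, 3.49, and 3.66 (log2 -0.97) and Hist1h2bj at 6.24, 5.81, 3.33, and 3.197 (log2 -0.88). H4 genes were led by Hist1h4d at 21.9, 19.1, 7.26, and 11.04 (log2 -1.21), Hist1h4i at 14.96, 13.2, 6.73, and 6.85 (log2 -1.05), and Hist1h4c at 5.17, 3.95, 1.43, and 2.19 (log2 -1.37). Among the H3 genes, Hist1h3a at 9.39, 8.33, 4.78, and 5.52 (log2 -0.79) and Hist1h3e at 8.41, 7.65, 4.81, and 5.65 (log2 -0.63) differed less than Hist1h3c at 7.51, 6.68, 1.81, and 3.72 (log2 -1.44).

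The libraries were then compared within cells grouped by Mki67, the gene of the Ki-67 protein of cycling cells. Cells with at least 2 Mki67 UMIs (Mki67-high cells) were 6.51%, 7.74%, 5.09%, and 5.696% of libraries 5 to 8. Among them the summed members were at 3107 CPM in libraries 5 and 6 and at 1914 in libraries 7 and 8 (log2 -0.70, interval -0.72 to -0.67). Among cells with no Mki67 UMI they were at 210.2 and 116 (log2 -0.86, interval -0.90 to -0.83). The difference was present in both kinds of cells and nearer to 0 in each than in all cells together. Mki67-high cells were not matched for the level of Mki67 itself, which was also lower in libraries 7 and 8. In the S-leaning and G2/M-leaning of the 2 equal parts described below, it was at 338 and 562 CPM in libraries 5 and 6. In libraries 7 and 8 it was at 262 and 403. In Mki67-high cells the class ratios ran from -0.73 for H2A to -0.64 for H2B, and in cells without Mki67 from -1.59 for H2B to -0.46 for H3. The H2B value of -1.59 rested in part on Hist1h2bc and Hist3h2ba, whose shares are given below. Median mitochondrial shares (7.22%, 7.18%, 4.61%, and 4.65%), the B cell, plasma cell, and red cell marker sums given above, and median UMIs per cell (8752, 8785, 10355, and 10077) also differed between the pairs of libraries, and their part in the result was not tested. Fewer cells with a transcript and fewer transcripts per cell cannot be told apart in such sums.

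To relate the members to proliferation, Mki67-high cells (273, 365, 286, and 228 cells in libraries 5 to 8) were compared with cells without Mki67 (3801, 4194, 5214, and 3687 cells), leaving aside 486 cells with 1 UMI. The summed members were at 3426, 2857, 2011, and 1792 CPM in Mki67-high cells and at 243, 181, 124, and 103 in cells without Mki67. Every library showed the same direction, and the fold was 14.8 in libraries 5 and 6 (log2 3.89, interval 3.86 to 3.91) and 16.6 in libraries 7 and 8 (log2 4.05, interval 4.02 to 4.08). Mki67-high cells were 7.16% and 5.34% of the cells of these pairs and held 13.9% and 8.44% of all UMIs, but 70.1% and 58.8% of the members' UMIs.

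Of the 54 members, 50 were at least 2-fold higher in Mki67-high cells in both pairs of libraries, against a background of 4.17% of 11921 genes. None was at least 2-fold lower in both, against 0.436%. The minimum was counted over all kept cells, so a gene can reach it through Mki67-high cells alone, and 9 members had under 100 UMIs. With a minimum of 200 UMIs, 35 of 37 genes were higher by this rule, but that minimum has the same limit. The share of all genes at that minimum was not computed. Mki67-high cells held 97.95% and 91.9% of the UMIs of Hist1h3c, for example, in the pairs of libraries. In the range of 50 to 1000 UMIs, 37 of 40 members were called higher, against 7.09% of 3640 genes. Calls covered 5 of 5 H1, 12 of 14 H2A, 14 of 15 H2B, 10 of 10 H3, and 9 of 10 H4 members. The median log2 ratio over the members was 3.46 in libraries 5 and 6 and 3.34 in libraries 7 and 8, beside 0.09 and 0 over all genes tested. By class, the log2 ratio of the sums was 4.58 and 4.56 for H2A, 3.99 and 4.16 for H1, 3.67 and 3.45 for H3, and 2.72 and 2.83 for H4. For H2B it was 2.60 (interval 2.51 to 2.69) in libraries 5 and 6 and 3.55 (interval 3.41 to 3.69) in libraries 7 and 8. The medians over H2B members were closer, at 3.59 and 3.81. In cells without Mki67 of libraries 5 and 6, H2B made up 12.2% of the members' UMIs, Hist1h2bc alone 4.28% and Hist3h2ba 1.51%. In libraries 7 and 8 these shares were 7.38%, 0.822%, and 0.152%.

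**Figure D2:**
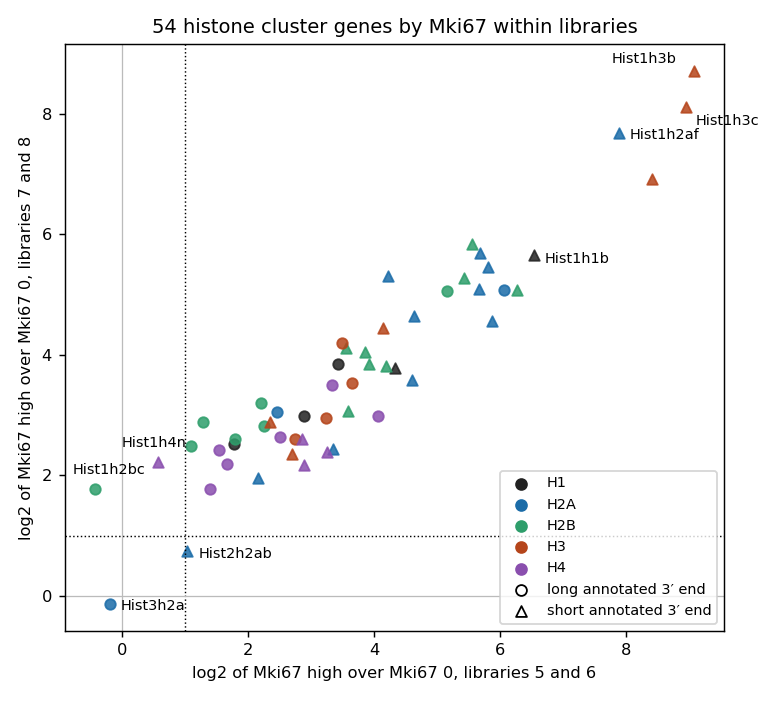
Log2 ratio of Mki67-high cells over cells without Mki67 for each of the 54 members in libraries 5 and 6 (x axis) and in libraries 7 and 8 (y axis), colored by class and shaped by annotated 3′ end. Dotted lines mark 2-fold, 50 members lie above both, and the H3 genes Hist1h3b and Hist1h3c lie farthest out.

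The highest ratios were those of short-ended members that were almost absent from cells without Mki67. Hist1h3c, an H3 gene, was at 56.5, 44.9, 20.5, and 38.3 CPM in Mki67-high cells of libraries 5 to 8 and at 0.0537, 0.143, 0.106, and 0.0994 in cells without Mki67. The groups were far apart in each library, with a log2 ratio of 8.95 (interval 7.96 to 10.17) in libraries 5 and 6 and of 8.11 (interval 7.20 to 9.18) in libraries 7 and 8. Cells without Mki67 held 8 and 10 of its UMIs in these pairs. They held 1 and 1 UMIs of Hist1h3b, 1 and 2 of Hist1h3g, and 4 and 2 of the H2A gene Hist1h2af, so the sizes of these ratios are imprecise. Their intervals were 6.56 to 14.39 and 6.16 to 14.05 for Hist1h3b, 5.86 to 13.73 and 4.90 to 10.05 for Hist1h3g, and 6.50 to 9.77 and 5.73 to 10.78 for Hist1h2af.

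Hist1h1b, which encodes the linker histone H1.5, combined a high level with a high ratio. It was at 958, 1019, 634, and 704 CPM in Mki67-high cells of libraries 5 to 8 and at 13.4, 8.35, 14.5, and 11.6 in cells without Mki67. The fold was 92.7 (log2 6.54, interval 6.43 to 6.64) in libraries 5 and 6 and 50.2 (log2 5.65, interval 5.56 to 5.74) in libraries 7 and 8. Mki67-high cells held 93.2% and 78.96% of its UMIs in these pairs. The H2A genes Hist1h2ap and Hist1h2ae had log2 ratios of 5.68 and 5.68 and of 6.06 and 5.07.

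Other H1 genes were less restricted to Mki67-high cells. Hist1h1e was at 378, 359, 216, and 247 CPM in Mki67-high cells and at 57.2, 43.3, 31.2, and 26.2 in cells without Mki67 (log2 2.88 and 2.98 in the pairs of libraries). Hist1h1c was at 108, 104, 48.7, and 64.1 against 33.05, 29.2, 10.7, and 8.43 (log2 1.77 and 2.51). In cells without Mki67, Hist1h1e made up 23.7% and 25.3% of the members' UMIs, the highest share, and Hist1h1b 5.09% and 11.5%. In Mki67-high cells the highest share was that of Hist1h1b (31.9% and 34.8%), and Hist1h1e made up 11.8% and 12%.

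Hist3h2a, Hist1h2bc, Hist2h2ab, and Hist1h4n did not reach 2-fold in both pairs of libraries. Hist3h2a was at 10.1, 8.79, 1.56, and 2.44 CPM in Mki67-high cells and at 10.6, 10.8, 2.12, and 2.19 in cells without Mki67, and its log2 ratios of -0.19 (interval -0.48 to 0.08) and -0.14 (interval -0.92 to 0.56) had intervals that included 0. Hist1h2bc was at 7.34, 6.12, 5.47, and 0.487 against 9.17, 8.82, 1.005, and 0.8699. Its log2 ratio was -0.43 (interval -0.77 to -0.11) in libraries 5 and 6 and 1.78 (interval 1.13 to 2.39) in libraries 7 and 8. Library 7 decided the latter, which was -0.84 in library 8 alone. Mki67-high cells of library 8 held very few UMIs of Hist1h2bc, so its direction there is not settled. Hist2h2ab (log2 1.04 and 0.75) and Hist1h4n (log2 0.57 and 2.22) had 66 and 54 UMIs in all. Of the called members, Hist2h4 had the lowest mean of the ratios (log2 1.40 and 1.77).

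The ratio was set beside the annotated 3′ end, without a test. The 31 short-ended members had median log2 ratios of 4.22 and 4.11 in the pairs of libraries, and the 23 long-ended members of 2.45 and 2.89. When summed, short-ended members differed 36.6-fold and 29.4-fold between Mki67-high cells and cells without Mki67, and long-ended members 7.55-fold and 8.81-fold. The short-ended sums rested in large part on Hist1h1b, which alone made up 31.9% and 34.8% of all member UMIs in Mki67-high cells. Hist1h1b is among the 9 short-ended members without a stem-loop and with fewer than 30 annotated bases after the stop codon. The annotation of these 9 may be incomplete. Long-ended members made up 75.1% and 62.3% of the members' UMIs in cells without Mki67 and 38.4% and 33.1% in Mki67-high cells. Single genes departed from this, since the long-ended Hist1h2ae had log2 ratios of 6.06 and 5.07 and the short-ended Hist1h3a of 2.69 and 2.36.

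Mki67-high cells had more UMIs (medians of 17844, 18413, 16686, and 16449) than cells without Mki67 (8465, 8502, 10119, and 9862), so detection was compared after drawing 3000 UMIs from each cell. A UMI of any member was then found in 89.8% (Clopper-Pearson interval 87.1 to 92.01) of Mki67-high cells and in 45.1% (44 to 46.2) of cells without Mki67 in libraries 5 and 6. In libraries 7 and 8 the shares were 87.7% (84.5 to 90.4) and 27.9% (26.9 to 28.8). Before thinning they were 97.8% and 79.02%, and 97.9% and 62.2%. Shallower cells left out were 3 and 9 in libraries 5 and 6 and 2 and 33 in libraries 7 and 8. No cell type that lacks these genes was at hand to measure free RNA, whose part in the shares was not tested.

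Single members differed widely at this depth. Hist1h1b was found in 72.1% and 67.4% of Mki67-high cells against 2.74% and 3.12% of cells without Mki67 in the pairs of libraries. Hist1h1c was found in 27.9% and 13.5% of Mki67-high cells against 9.32% and 3.101% of cells without Mki67, and Hist3h2a in 4.57% and 0.781% of Mki67-high cells against 3.24% and 0.665% of cells without Mki67.

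**Figure D3:**
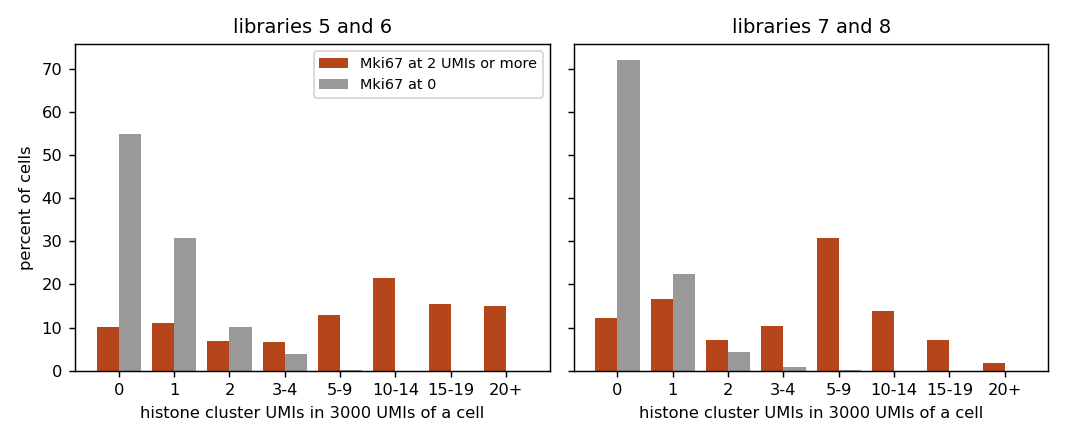
Percent of cells (y axis) by the number of member UMIs among 3000 UMIs of a cell (x axis), for Mki67-high cells and cells without Mki67 in libraries 5 and 6 (left) and 7 and 8 (right). Mki67-high cells spread from 0 to 20 and more UMIs, and 54.9% and 72.1% of cells without Mki67 have 0.

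Mki67-high cells also varied among themselves. At 3000 UMIs per cell, their median number of member UMIs was 12, 9, 5, and 5 in libraries 5 to 8, with a 90th percentile of 24, 19, 15, and 13, and 6.96%, 12.7%, 12.6%, and 11.9% of them had 0. At least 10 member UMIs were found in 57.5%, 48.1%, 24.1%, and 21.2% of Mki67-high cells, but in 0, 0, 1, and 1 of the 3796, 4190, 5196, and 3672 cells without Mki67. Within Mki67-high cells, the H1 and the core histone UMIs of a cell had a Spearman's rho of 0.76, 0.71, 0.64, and 0.62 across 273, 362, 286, and 226 cells. For H2A and H2B it was 0.34, 0.37, 0.32, and 0.29, and for H3 and H4, which have fewer UMIs, 0.17, 0.22, 0.04, and 0.23. These cells share a library and were thinned to 1 depth, and the values are descriptions.

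To place the members within the cell cycle, the Mki67-high cells of each library were ordered by the share of 25 S-phase genes (such as Mcm helicase subunits) in the summed UMIs of these and of 24 G2/M genes (such as Top2a), and divided into 3 equal parts. The part with the highest share (S-leaning cells) and the part with the lowest (G2/M-leaning cells) had 91, 121, 95, and 76 cells each in libraries 5 to 8. They are ranges of a score, not cell types, and a high share does not show that a cell was in S phase. The lowest share among S-leaning cells was 59.5%, 56.9%, 66.7%, and 61.5% in libraries 5 to 8. The highest among G2/M-leaning cells was 25.3%, 27.45%, 36.7%, and 31.9%. The parts thus cover unlike ranges of the score in different libraries. Mki67, by which the cells were chosen, was itself lower in S-leaning cells (log2 -1.16 in libraries 5 and 6 and -0.90 in libraries 7 and 8). The summed members were at 2326 CPM in S-leaning and 2850 in G2/M-leaning cells of libraries 5 and 6 (log2 -0.29, interval -0.33 to -0.26), and at 827 and 2044 in libraries 7 and 8 (log2 -1.31, interval -1.37 to -1.24). In single libraries the log2 ratio was -0.47, -0.11, -1.73, and -0.78, so libraries of the same pair differed by more than the counting intervals of the pairs. With each library divided into 2 equal parts, the log2 ratios were -0.06 and -0.75 in the pairs and -0.21, 0.09, -0.90, and -0.54 in single libraries, above 0 in library 6. Of the class sums, H2A then was at 0.02 (interval -0.03 to 0.07) and H1 at -0.02 (interval -0.06 to 0.01) in libraries 5 and 6. A lower level in S-leaning than in G2/M-leaning cells was thus seen in libraries 7 and 8 with both divisions. In libraries 5 and 6 it depended on the division and the library. The middle part was not compared, but nearly all of its cells enter the 2 equal parts. These were at 3048 and 3170 CPM in libraries 5 and 6 and at 1421 and 2386 in libraries 7 and 8. Each lay above the outer part of its side, so cells between held more. The ratios do not place the highest level in either outer part.

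No member was at least 2-fold higher in S-leaning cells in both pairs of libraries, against a background of 2.12% of 11872 genes, and 4 were at least 2-fold lower, against 0.986%. Those 4 were Hist1h1c, Hist1h3g, Hist2h3b, and Hist1h4h, with log2 ratios of -1.07 and -2.04, -1.06 and -2.32, -2.18 and -1.19, and -1.71 and -2.75 in the pairs of libraries. S-leaning cells held 0 and 2 UMIs of Hist2h3b, so its first ratio is a bound set with 3 counts. With 2 equal parts, Hist1h1c (-0.64) and Hist1h3g (-0.77) no longer reached 2-fold in libraries 5 and 6. Intervals lay below 0 in both pairs for 12 members and above 0 in both for 1, the linker histone gene Hist1h1a. No share of all genes is given for these interval counts. Hist1h1a was at 90.9 against 61.5 CPM in libraries 5 and 6 (log2 0.56, interval 0.33 to 0.80) and 24.6 against 16.8 in libraries 7 and 8 (log2 0.56, interval 0.02 to 1.10). With 2 equal parts its ratio in libraries 7 and 8 was 0.14 (interval -0.18 to 0.47), which included 0. Hist1h1b was at 833 against 869.6 (log2 -0.06, interval -0.13 to 0.01) and at 296 against 712 (log2 -1.27, interval -1.38 to -1.15). In libraries 5 and 6 its direction was not settled, at -0.32 in library 5 and 0.15 in library 6, and at 0.13 (interval 0.08 to 0.18) in both with 2 equal parts.

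**Figure D4:**
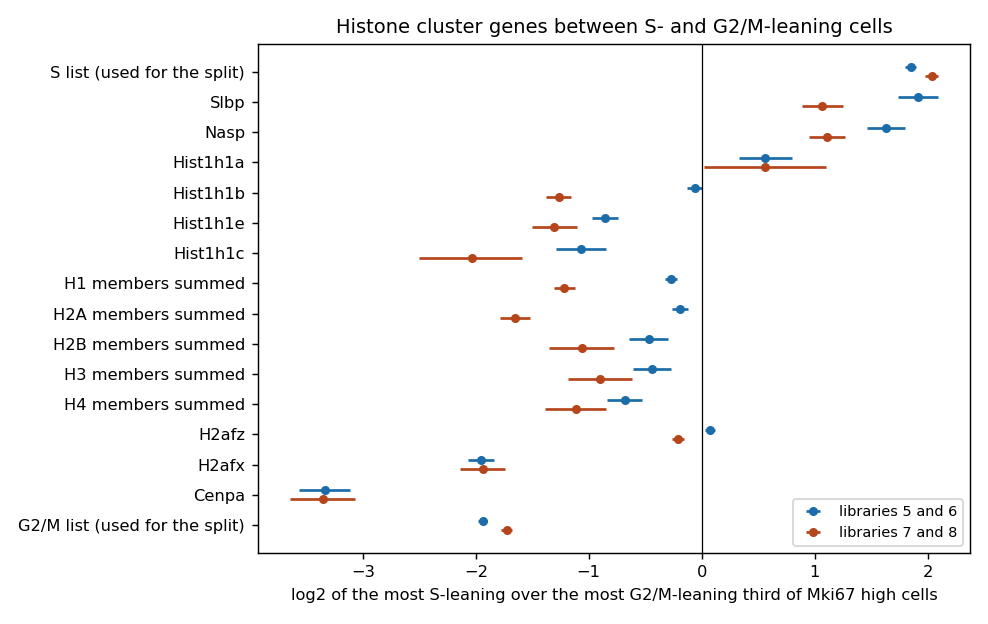
Log2 ratio of S-leaning over G2/M-leaning Mki67-high cells with exact 95% counting intervals, for class sums, members, and genes outside the rule in libraries 5 and 6 and in 7 and 8. The S and G2/M lists define the split, Slbp and Nasp lie above 0, and the class sums of this division into 3 parts lie between -1.65 and -0.20.

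Slbp and Nasp were higher in S-leaning cells in both pairs of libraries. Slbp, whose product binds the stem-loop, was at 305 against 80.96 CPM (S-leaning against G2/M-leaning cells) in libraries 5 and 6 (log2 1.91, interval 1.74 to 2.09) and at 261 against 125 in libraries 7 and 8 (log2 1.07, interval 0.89 to 1.25). Nasp, a histone chaperone, had log2 ratios of 1.63 and 1.11. Of the histone genes outside the rule, Cenpa, the centromeric H3, was at -3.34 and -3.35, H2afx at -1.95 and -1.94, and H2afz at 0.07 and -0.21.

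Cells that carried UMIs of the 25 genes of this S list but no Mki67 were examined as well, a division chosen after the values had been seen. Thinned to 3000 UMIs, cells without Mki67 that had 10 or more UMIs of the S list were 40, 28, 248, and 143 in number in libraries 5 to 8. They held on average 1.23, 0.643, 0.581, and 0.413 member UMIs. Cells without Mki67 that had 0 or 1 S list UMIs held 0.744, 0.548, 0.354, and 0.303, and Mki67-high cells 11.8, 9.07, 6.17, and 5.82. In each library the cells rich in S genes were nearer to other cells without Mki67 than to Mki67-high cells.

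Lists of related genes were compared by the same rules, with the background of 4.17% of all genes for a higher call. Of 13 factors of histone mRNA processing and the histone locus, 1 was called higher in Mki67-high cells, Zfp473, with 60 UMIs in all (log2 3.57 and 1.73 in the pairs of libraries). Slbp was at 1.93 and 0.82 and did not reach 2-fold in libraries 7 and 8. Of 20 histone chaperones, 4 were called, with Asf1b (4.30 and 2.91), Chaf1a (3.35 and 1.68), and Hjurp (1.999 and 1.92) above Chaf1b. Of 10 histone genes outside the rule with enough UMIs (11 in the list), 5 were called, led by H1fx (4.05 and 2.63), Cenpa (2.53 and 3.69), and H2afx (3.71 and 1.72). In the S list 19 of 25 and in the G2/M list 24 of 24 genes were called higher, led by Rrm2 (5.78 and 4.47), Clspn (4.73 and 3.75), and Ccne2 (4.96 and 3.44) and by Ube2c (7.42 and 7.83), Hmmr (8.27 and 6.89), and Ccna2 (8.04 and 6.94).

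Between the pairs of libraries, where 16.7% of all genes were called lower and 15.1% higher, 0 of 13 processing factors and 0 of 20 chaperones were called lower in libraries 7 and 8. Called higher were 8 chaperones, led by Ipo4 (log2 2.35), Npm1 (1.81), and Set (1.64). Of the listed histone genes outside the rule, H2afv (-2.26) and H1fx (-2.73) were called lower, a share near the background. In the S list 7 genes were called higher, led by Mcm3 (1.46), Dtl (1.36), and Mcm5 (1.36), and 0 lower. In the G2/M list 5 were called lower, led by Ccnb2 (-2.06), Nusap1 (-2.04), and Kif11 (-1.53), also near the background, and 0 higher. The summed S list was at 669.7, 706, 1133, and 1094 CPM in libraries 5 to 8, higher in libraries 7 and 8, where the summed members were lower. The summed G2/M list was at 618, 666, 452, and 488.

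Hist1h2ap stood apart between libraries of the same pair. Its log2 ratio was 1.40 for library 5 over 6 and 1.83 for library 7 over 8. Without library 5, its ratio of libraries 7 and 8 over 5 and 6 turned from -0.73 to 0.08. A rule chosen after these values had been seen, at least 2-fold higher in library 5 than 6 and in library 7 than 8, was met by 3 of 54 members (Hist1h2ap, Hist1h2ad, and Hist2h3b), against 0.0503% of all genes. That share is 6 genes, these 3 among them. Hist1h2ad had 53 UMIs in all and 0.0657 CPM in library 8. Hist2h3b had 73 UMIs in all and 0 CPM in library 8, so its ratio there is a bound set with 3 counts. Without Hist1h2ap the summed members were at 568, 538, 230.1, and 247 CPM. The Mki67 ratio of Hist1h2ap was 5.68, 5.87, 5.70, and 5.87 on the log2 scale in libraries 5 to 8.

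Hist1h2ap also allowed a look at where 1 library ends and the next begins, since barcodes were assigned to columns by order. Along the columns, its level changed most at 39 of 9766 columns from the assumed boundary of libraries 5 and 6 and at 77 of 10154 columns from that of libraries 7 and 8. The gene was picked for its difference between libraries set by this same order, so the closeness is no independent check of the order. No other gene was examined in this way, nor the boundary between libraries 6 and 7.

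The genes outside the rule that were most like the summed members across 18483 cells thinned to 3000 UMIs were, by Spearman's rho, Pclaf (0.30), Mki67 (0.30), Birc5 (0.25), Top2a (0.25), Spc24 (0.24), Ube2c (0.24), Nusap1 (0.23), Rrm2 (0.23), Stmn1 (0.22), and Cenpf (0.22). These correlations are across cells of 4 libraries and are descriptions.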

How the data were processed

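scRNA-Seq libraries were made by the authors with a 10x Genomics 3′ kit (v3), and UMI counts per gene and cell were obtained by them with Cell Ranger (version 3.1.0) on mm10 and pooled by aggregation. The deposited values are whole UMI counts. The matrix holds 35989 columns and the barcode list 19920 entries. The final columns were taken as the listed barcodes, an assumption, and 16069 columns without a barcode were left out.

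Member UMIs were summed over kept cells and expressed as CPM of the library. Exact Poisson intervals were computed for levels, exact conditional intervals for ratios, and Clopper-Pearson intervals for shares (SciPy 1.17.1, NumPy 2.4.6), at 95%. A count of 0 was set to 3 counts in a ratio, and a ratio with at most 3 counts on both sides to 0. A member was called at 2-fold in the same direction in both pairs of libraries (Mki67, S-leaning cells), or at 2-fold without overlap of single libraries. Named were the 3 members of each class with the most UMIs, the 5 highest and 5 lowest of each ratio, the 3 highest called genes of each related list, and the 10 genes most like the sum, and other names were chosen after their values were seen. Members, lists, and rules were chosen with earlier results of these data known. The computation of ratios and calls was checked on simulated Poisson counts, with the same mean of a gene in all libraries except for genes changed on purpose. Such counts hold no spread between libraries or cells beyond counting error, so the check says nothing about that spread. Alternatives used TMM factors (edgeR 4.0.16), size factors (DESeq2 1.42.0), other filters, and the omission of each library. Stem-loops and promoters come from reference annotation.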

Additional observations from a re-analysis of the deposited data

How the results depend on the processing

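No paired analysis was possible because the library numbers carry no label that pairs them with samples or replicates. The summed ratios of the libraries and of Mki67, and that of S-leaning cells for all members in the pairs of libraries, kept their direction under every alternative run. The S-leaning ratio of H2A in libraries 5 and 6 turned from -0.20 to 0.02 with 2 equal parts, and that of all members in library 6 from -0.11 to 0.09. For all members and for H1, H2A, H2B, H3, and H4, the log2 ratio of libraries 7 and 8 over 5 and 6 was -1.321, -1.322, -1.356, -1.572, -1.105, and -1.156 with mitochondrial, ribosomal protein, and immunoglobulin genes left out of the total, -1.271, -1.273, -1.306, -1.522, -1.055, and -1.106 with TMM factors, and -1.256, -1.258, -1.291, -1.507, -1.040, and -1.091 with DESeq2 size factors. It was -1.131 for all members and -1.130 for H1 without a cell filter. Without the 5% of cells with the most UMIs it was -1.089 for all members, -1.081 for H1, -1.129 for H2A, and -0.851 for H3. Without Hist1h1b it was -1.197 for all members and -1.264 for H1. With each library left out in turn, the ranges were -1.268 to -1.062 for all members, -1.216 to -1.092 for H1, -1.781 to -0.865 for H2A, -1.491 to -1.340 for H2B, -1.059 to -0.800 for H3, and -1.117 to -0.853 for H4. The lowest H2A value was that without library 7.

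The log2 ratio of Mki67-high cells over cells without Mki67 in libraries 5 and 6 was 3.854 without a cell filter, 3.779 with the other total, 3.690 with TMM factors, 3.723 with DESeq2 size factors, 4.223 without the 5% of cells with the most UMIs, 3.554 with 1 Mki67 UMI as the minimum, 3.983 with cells thinned to 3000 UMIs, and 3.406 without Hist1h1b. In libraries 7 and 8 it was 4.013 with DESeq2 size factors, 4.214 without those 5% of cells, 3.721 with 1 Mki67 UMI, 4.099 thinned, and 3.611 without Hist1h1b. With each library left out it ran from 3.820 to 3.978 and from 4.014 to 4.124. At 5000 UMIs per cell, a member UMI was found in 92.83% of Mki67-high cells and 61.35% of cells without Mki67 in libraries 5 and 6, and in 41.28% of cells without Mki67 in libraries 7 and 8. The S-leaning ratio was -0.057 and -0.747 with 2 equal parts and -0.408 in libraries 5 and 6 without Hist1h1b.

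Members called higher with Mki67 numbered 48 to 51 with each library left out, 43 with thinned cells, 55 of 61 with a minimum of 10 UMIs, and 51 at 1.5-fold. Members called lower in libraries 7 and 8 numbered 27 to 40 with each library left out, 41 with the other total, and 46 at 1.5-fold. The share of all genes called was not computed under these alternatives, so the counts of both comparisons have no background here. Of 981 values of the 27 named members recomputed, 960 kept their sign. Of the others, 2 took the opposite sign although their interval as reported left out 0. The first was Hist1h2ap in libraries 7 and 8 over 5 and 6 without library 5 (0.084). The second was Hist1h2bc with Mki67 in libraries 7 and 8 without library 7 (-0.836), which rests on very few UMIs in Mki67-high cells. With each library left out, the first ran from -2.045 to 0.084 and the second from -0.836 to 2.445. The cause of these shifts was not tested. Intervals cover counting error, not the spread between cultures.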
